A study of Mus musculus with 5 samples.

Results

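A 65 kb stretch of mouse chromosome 17 that holds the candidate genes Safb2, Safb, Rpl36 and Lonp1 was examined on tiling arrays that set cDNA against genomic DNA. It was taken as all probes of chromosome 17 in the 65 kb of file positions whose first and last probes start at 54890452 and 54954995. That gave 62 windows of 1 kb among 56080 on the chromosome, and 409 of 387986 probes. The stretch was chosen by its level, because its 5 kb windows were transcribed in every group of the series. That level is therefore given here as a description with no test.

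The samples came from 2 lines of mouse embryo fibroblasts of strain FVBN, MEFF and MEFB, which became immortal in culture without an added gene and derive from embryos of 12.5 days. MEFF has the genotype Thp/+ and MEFB the genotype +/Thp, so each carries the Thp deletion on 1 of its 2 copies of chromosome 17, on opposite parental copies and far from this stretch. The 3 groups were MEFF total RNA (2 arrays), MEFB polyA RNA (1 array) and MEFF polyA RNA (2 arrays), and no group lacks the deletion. On every array the Cy3 dye marked double-stranded cDNA, and the Cy5 dye marked fragmented genomic DNA, called input. Each genotype is represented by 1 line, the dyes were not swapped, and the cDNA keeps no strand. A level here is log2(cDNA/input) of a probe, less the array's median, averaged over 1 kb windows with at least 4 probes or over the exon or intron probes of a gene. In bulk RNA, a lower share of expressing cells and less RNA per cell cannot be told apart. Fibroblast markers on other chromosomes were not read by this array.

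Safb and Safb2 encode scaffold attachment factors, nuclear proteins that bind DNA of matrix attachment regions and also RNA, and that act in transcription and RNA processing. Lonp1 encodes an ATP-dependent protease that degrades damaged proteins in the mitochondrial matrix. Rpl36 encodes a protein of the large ribosomal subunit, and 2410015M20Rik (Micos13 in RefSeq) a subunit of the complex that shapes the inner mitochondrial membrane. All are housekeeping functions found in most dividing cells. The next gene beyond the stretch, Tmem146 (Catsperd in RefSeq), encodes a subunit of the calcium channel of sperm.

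The genes were named by placing the probes on the NCBIM37 assembly, because no source used here states the build of the file positions. The placing used where the array's probes avoid repeated sequence, with no intensity. The mean log2 number of copies of the 14-base words under the probes was 1.08 at the best single shift, against 1.15 at the next best and a median of 2.44 over shifts. For the first 215 probes alone the lead was small, at 1.04 against 1.06. The placing put the stretch at chr17:56700423-56764806, in 3 pieces whose shifts from the file positions were 1809971, 1809908 and 1809762 bases. These include an offset of -27 bases for all placed probes, taken where input signal and GC content correlated most over 269968 probes that excluded this stretch. A single shift chosen by the input signal, planned as the main way, put the stretch elsewhere, at -730258 bases, with a correlation of 0.269 over its 409 probes between observed and predicted input. At the 3 pieces used here that correlation was higher, at 0.333. With the pieces slid together over 4 Mb to either side, it was highest 4 bases from the place used here, at 0.359. The input of 3 of the 5 arrays taken alone, and of the last 194 probes, gave the same place, while that of the other 2 arrays and of the first 215 probes did not. Along the stretch, the mean level correlated with the exon bases under each probe at r = 0.58 over 409 neighbouring probes. At places more than 1000 bases away, within 3 Mb in steps of 10 bases, the highest such correlation was 0.34.

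In NCBIM37, Safb2 (ENSMUSG00000042625.9) runs on the minus strand at chr17:56700388-56724008, and Safb (ENSMUSG00000071054.4) on the plus strand at chr17:56724405-56745717. The pair lie head to head, with 397 bases between their annotated starts. 2410015M20Rik (ENSMUSG00000049760.5) follows on the minus strand at chr17:56746875-56749194, and Rpl36 (ENSMUSG00000057863.5) on the plus strand at chr17:56752818-56753666. Lonp1 (ENSMUSG00000041168.8), on the minus strand at chr17:56753724-56766326, ends 58 bases from Rpl36, and the stretch stops inside it, short of its start. Of the 409 probes, 158 lay in Safb2, 132 in Safb, 15 in 2410015M20Rik, 5 in Rpl36 and 63 in Lonp1.

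The promoters of 4 of these 5 genes are shown because the genes share the stretch, and because the head-to-head pair has overlapping promoters. They come from RefSeq on the GRCm38.p6 build, whose coordinates differ from those above, and run from 250 bases before to 50 after each gene's start, 5′ to 3′ on the gene's strand. Capitals mark CG dinucleotides. The places are chr17:56584536-56584835 (minus strand) for Safb2, chr17:56584732-56585031 (plus) for Safb, chr17:56609722-56610021 (minus) for Micos13 and chr17:56626854-56627153 (minus) for Lonp1.
Safb2: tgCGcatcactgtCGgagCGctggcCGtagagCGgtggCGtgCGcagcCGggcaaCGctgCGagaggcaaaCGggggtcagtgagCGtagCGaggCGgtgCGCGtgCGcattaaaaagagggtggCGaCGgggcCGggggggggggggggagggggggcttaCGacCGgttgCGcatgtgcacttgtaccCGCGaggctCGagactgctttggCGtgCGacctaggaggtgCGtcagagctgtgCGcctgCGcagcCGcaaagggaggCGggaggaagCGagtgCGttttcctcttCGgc
Safb: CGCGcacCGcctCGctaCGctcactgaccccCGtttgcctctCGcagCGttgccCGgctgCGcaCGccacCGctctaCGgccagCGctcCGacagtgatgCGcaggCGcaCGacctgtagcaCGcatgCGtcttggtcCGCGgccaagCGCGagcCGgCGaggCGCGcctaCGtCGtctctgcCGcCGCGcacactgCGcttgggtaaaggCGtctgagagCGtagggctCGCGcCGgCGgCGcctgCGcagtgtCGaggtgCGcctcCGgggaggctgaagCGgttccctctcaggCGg
Micos13: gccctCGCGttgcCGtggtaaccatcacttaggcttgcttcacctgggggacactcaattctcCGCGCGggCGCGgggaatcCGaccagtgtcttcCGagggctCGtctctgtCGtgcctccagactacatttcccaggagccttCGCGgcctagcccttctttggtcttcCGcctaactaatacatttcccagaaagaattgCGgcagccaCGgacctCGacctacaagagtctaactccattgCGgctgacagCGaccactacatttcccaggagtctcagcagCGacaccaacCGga
Lonp1: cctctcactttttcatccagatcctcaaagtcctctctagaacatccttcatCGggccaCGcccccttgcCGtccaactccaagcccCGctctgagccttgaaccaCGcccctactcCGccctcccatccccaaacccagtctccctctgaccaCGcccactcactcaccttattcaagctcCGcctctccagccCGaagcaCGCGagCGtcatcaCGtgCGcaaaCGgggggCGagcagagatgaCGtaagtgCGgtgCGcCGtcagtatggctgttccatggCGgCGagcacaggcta

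The Safb promoter held 47 CG dinucleotides in 300 bases and the Safb2 promoter 36, against a median of 7 over the 32851 promoters of the table. As many or more were found in 1.44% of all promoters for Safb and in 6.23% for Safb2. Micos13 and Lonp1 had 22 each, a number reached by 23.1% of promoters. The promoters of Safb2 and Safb share 104 bases, so some of these dinucleotides are counted in both. The Lonp1 promoter shares 243 bases with the Catsperd promoter at chr17:56626797-56627096, which faces away from it. Another Catsperd promoter, at chr17:56627893-56628192, does not overlap that of Lonp1. Of 4 motifs searched on both strands, GGGCGG occurred in the Lonp1 promoter and in 35.7% of all promoters. CCGGAA (14.9% of all promoters), TATAAA (13.6%) and CCAAT (37.4%) were in none of these 4 windows.

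Of the 65 windows of 1 kb, 62 had at least 4 probes and were analysed. Their levels ran between -0.80 and 2.26 (median 0.70) on the first MEFF total RNA array and between -0.75 and 2.37 (median 0.74) on the second. They ran between -0.05 and 4.34 (median 1.42) on the MEFB polyA array. On the MEFF polyA arrays they ran between 0.11 and 4.02 (median 1.17) and between -0.31 and 5.30 (median 1.97). All but 1 or 2 of the 62 windows lay above 0 on each array, and all 62 did on the first MEFF polyA array. The median over all 56080 windows of the chromosome lay between -0.05 and -0.03 on each array. The 27 block windows (43.5%) that exceeded their array's 95th percentile on all 5 arrays compare with 2.57% of all windows, a difference that the choice of the stretch fixes.

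**Figure D1:**
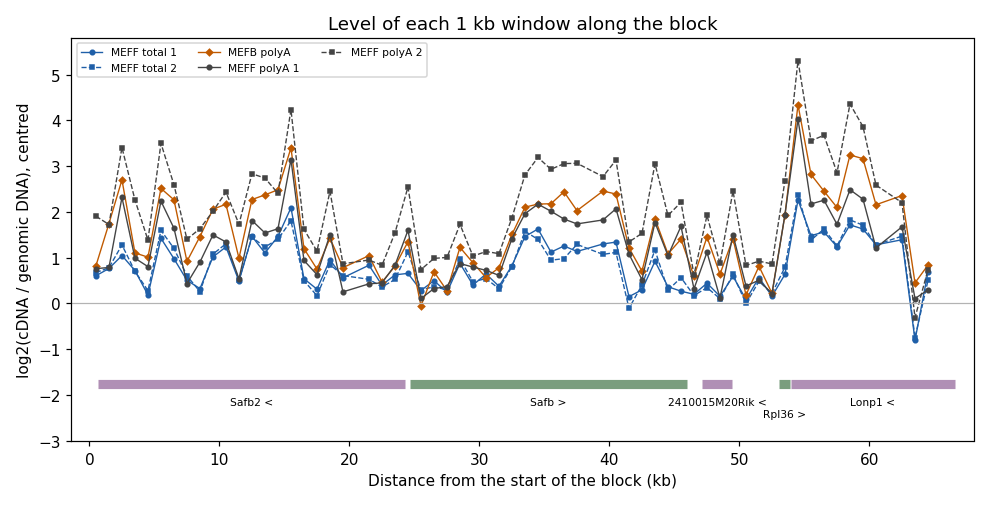
Level of each 1 kb window along the stretch on the 5 arrays, against the distance from its start in kb, with placed genes as bars (> plus strand, < minus strand). The highest window, inside Lonp1, reached 5.30 on the second MEFF polyA array, and the total RNA arrays (blue) lay below the MEFF polyA arrays (grey) in 51 of 62 windows.

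The level was uneven along the stretch, and the same windows were high on all arrays. Across the 62 windows, which are neighbours and not independent, the correlation between arrays lay between 0.85 and 0.97. The highest window, 54944000 to 54944999, held 3 Lonp1 exon probes among its 6 probes. Its level was 2.26 and 2.37 in MEFF total RNA, 4.34 in MEFB polyA RNA, and 4.02 and 5.30 in MEFF polyA RNA. The second, 54905000 to 54905999 in Safb2, stood at 2.09 and 1.80 in MEFF total RNA, 3.40 in MEFB polyA RNA, and 3.14 and 4.24 in MEFF polyA RNA. The next 3 (starting at 54948000, 54949000 and 54946000) all lay in Lonp1, with levels between 1.56 and 1.83 in MEFF total RNA, between 2.45 and 3.24 in MEFB and between 2.26 and 4.36 in MEFF polyA RNA.

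The lowest window, starting at 54953000, held only Lonp1 intron probes and was the 1 window below 0 on both total RNA arrays, at -0.80 and -0.75, with 0.45 in MEFB and 0.11 and -0.31 in MEFF polyA RNA. The others of the lowest 5 were a window of Safb intron probes (starting at 54915000), 2 windows between 2410015M20Rik and Rpl36 (54940000 and 54942000) and 1 in 2410015M20Rik (54938000). In these 4 windows the levels lay between 0.00 and 0.30 in MEFF total RNA, between -0.05 and 0.64 in MEFB and between 0.11 and 0.87 in MEFF polyA RNA.

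Exon probes stood above intron probes in all 4 genes that had both, on every array. Lonp1 exons (13 probes, 3 of them beyond the edge of the stretch) had the highest level, 3.32 and 3.32 in MEFF total RNA, 5.11 in MEFB, and 4.59 and 6.02 in MEFF polyA RNA. That placed Lonp1 between rank 3 and rank 7 of 524 genes with at least 5 exon probes on the 5 arrays. Its 49 intron probes averaged 0.45 and 0.50 in MEFF total RNA, 1.21 in MEFB, and 0.72 and 1.58 in MEFF polyA RNA, so its exons and introns lay further apart than those of the other genes. Of the Lonp1 probes, 11 of 13 in exons and 12 of 49 in introns lay within 50 bases of an exon edge. These levels therefore depend on the placing.

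Of the scaffold attachment factors, Safb had the higher exon level on every array. Its 12 exon probes averaged 1.99 and 2.34 in MEFF total RNA, 3.70 in MEFB, and 3.66 and 5.28 in MEFF polyA RNA. Safb2, with 28 exon probes, averaged 1.31 and 1.38 in MEFF total RNA, 2.54 in MEFB, and 2.21 and 3.28 in MEFF polyA RNA. Safb lay above Safb2 by 0.68 to 2.00 on the log2 scale, and Lonp1 above Safb by 0.74 to 1.41. Between the MEFF polyA arrays the SD was 0.76 for Safb2 exons and 1.14 for Safb exons, so the order is one within each array. The introns of the pair differed less, with Safb above Safb2 by 0.03 to 0.34. The 107 Safb intron probes averaged 0.70 and 0.65 in MEFF total RNA, 1.20 in MEFB, and 1.05 and 1.81 in MEFF polyA RNA. The 93 Safb2 intron probes averaged 0.65 and 0.62 in MEFF total RNA, 1.05 in MEFB, and 0.71 and 1.52 in MEFF polyA RNA. Safb ranked between 11 and 71 of 524 genes by exon level and Safb2 between 124 and 200. By intron level among 585 genes, Safb ranked between 27 and 42, Safb2 between 39 and 63 and Lonp1 between 41 and 90.

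2410015M20Rik and Safb2 had no fixed order by exon level. The 5 exon probes of 2410015M20Rik averaged 0.91 and 0.84 in MEFF total RNA, 2.70 in MEFB, and 2.26 and 3.48 in MEFF polyA RNA. Safb2 minus 2410015M20Rik was 0.40 and 0.53 in MEFF total RNA, -0.16 in MEFB, and -0.05 and -0.20 in MEFF polyA RNA. These gaps were smaller than that between the MEFF polyA arrays for either gene. By intron level (8 probes) 2410015M20Rik was the lowest of the 4 genes, at 0.31 and 0.35 in MEFF total RNA, 0.58 in MEFB, and 0.25 and 1.04 in MEFF polyA RNA. No probe of Rpl36 lay wholly in an exon, and 2 of its 5 probes overlapped exon bases, so it entered no gene-level fit. The 5 probes averaged 0.56 and 0.66 in MEFF total RNA, 1.92 in MEFB, and 1.96 and 2.61 in MEFF polyA RNA. Since 1 of its 3 intron probes matched another place of the genome over at least 40 of its 50 bases, this level is uncertain.

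**Figure D2:**
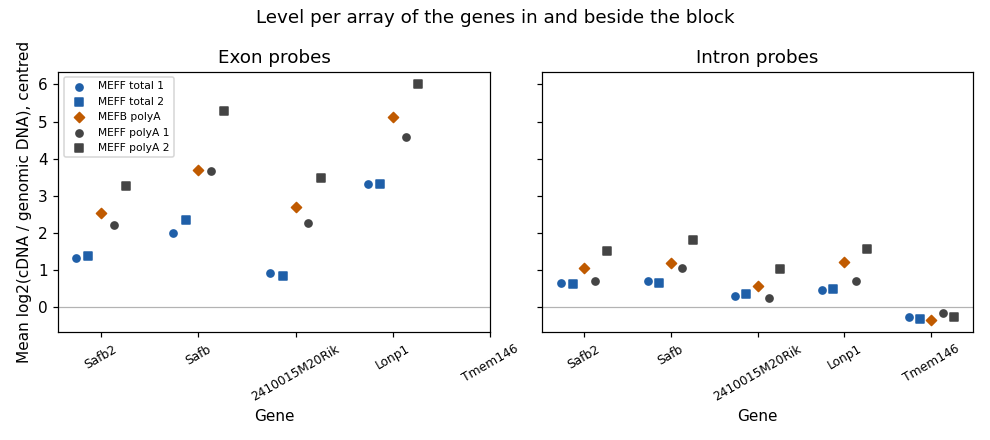
Mean level of exon probes (left) and intron probes (right) of each gene on the 5 arrays, in log2(cDNA/input) less the array median; Tmem146 had under 5 exon probes and shows introns only. Lonp1 exons reach 6.02 on the second MEFF polyA array, while the introns of Tmem146 lie below 0 on all 5 arrays.

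Within the transcripts, the 5′ and 3′ parts of the exons differed by gene. In Safb2, the 14 exon probes nearest the 3′ end differed from the 14 nearest the 5′ end by -1.05 and -0.97 in MEFF total RNA, -1.45 in MEFB, and -1.79 and -1.97 in MEFF polyA RNA, so the 3′ part was lower on every array. In Safb, with 6 probes in each part, the difference was -0.01 and -0.27 in MEFF total RNA, 0.25 in MEFB, and 0.48 and 0.19 in MEFF polyA RNA. In Lonp1, with 6 probes in each part, it was -0.34 and -0.46 in MEFF total RNA, -0.32 in MEFB, and 0.05 and -0.17 in MEFF polyA RNA. These are single differences over few probes, and no test was made.

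The edges were not equally sharp. The first 5 kb inside the low edge averaged 0.67 and 0.74 in MEFF total RNA, 1.49 in MEFB, and 1.17 and 2.19 in MEFF polyA RNA. The 5 kb just outside it, past the 3′ end of Safb2, averaged 0.57 and 0.49 in MEFF total RNA, 1.17 in MEFB, and 0.53 and 1.00 in MEFF polyA RNA. The 10 kb stretch that ends 7 kb below the low edge lay between -0.11 and 0.05 on all arrays. At the high edge, the last 5 kb averaged 0.76 and 0.72 in MEFF total RNA, 1.55 in MEFB, and 0.95 and 1.41 in MEFF polyA RNA, and the next 5 kb 0.34 and 0.37 in MEFF total RNA, 0.45 in MEFB, and 0.48 and 0.91 in MEFF polyA RNA. That next stretch holds the first exons of Lonp1. The 10 kb that begin 3 kb above the high edge, in Tmem146, lay between -0.23 and -0.08 on all arrays, and the 70 Tmem146 intron probes averaged between -0.34 and -0.17.

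Total RNA holds all RNA of the cells and polyA RNA the part with a polyA tail, and the first comparison set these beside each other in MEFF. The level of the stretch over its 409 probes was 0.84 and 0.83 in MEFF total RNA, against 1.27 and 2.12 in MEFF polyA RNA. The difference was -0.86 (SE 0.28), and limma's adjusted p over 1100 tiles of 65 kb was 0.419, so it did not pass the threshold of 0.05. No tile passed (0%), and 130 (11.8%), this one among them, had an unadjusted p under 0.05. The groups did not overlap, but the MEFF polyA arrays lay 0.85 apart from each other, nearly as far as the groups. After normexp background correction the difference was -0.85 and passed (adjusted p = 4.16e-07), where 7.64% of tiles passed with a lower level. That call was lost without total RNA replicate 2 (-0.80, adjusted p = 0.0608). After quantile normalization it was -0.31 and passed (adjusted p = 0.0303), where 4.27% of tiles passed with a lower level.

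By windows, 0 of 62 passed limma's test with intensities as deposited (lowest adjusted p = 0.372), where 0% of the 56080 windows passed. At an unadjusted p under 0.05, 39 of 62 windows stood out, against 7.51% of all windows. Both total RNA arrays lay below both MEFF polyA arrays in 51 of 62 windows (82.3%), against 21.1% of all windows. After normexp, 8 of 62 windows passed, all lower in total RNA, against 0.656% of all windows lower. With normexp but without MEFF polyA replicate 2 these calls were lost, at a median difference of -0.54. Without MEFF polyA replicate 1 that median was -1.19. After quantile normalization 15 passed, all lower, against 2.11%. The difference was below 0 in 60 of 62 windows, against 54.8% of all windows, and its median was -0.85, against -0.02 over all windows. These windows belong to a stretch chosen by its level, while all windows together had a median level near the array median. By exon level, 45.8% of 524 genes had an unadjusted p under 0.05, with a median difference of -1.0. The contrasts with all windows are therefore a description and set the stretch apart from no other transcribed place.

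The 3 largest differences were those of the Lonp1 window from 54944000 (-2.35), the Safb2 window from 54905000 (-1.74) and the Safb2 window from 54892000 (-1.70). The last held 6 Safb2 exon probes among 7 and stood at 1.05 and 1.28 in MEFF total RNA, against 2.32 and 3.41 in MEFF polyA RNA. The 5 windows with the lowest adjusted p after normexp were that Lonp1 window, the Rpl36 window from 54943000, the Safb windows from 54935000 and 54925000, and the Safb2 window from 54905000. The Rpl36 window stood at 0.64 and 0.80 in MEFF total RNA, against 1.94 and 2.68 in MEFF polyA RNA. At the other end, the intron windows from 54954000 (Lonp1), 54909000 and 54911000 (Safb2) differed by 0.08, 0.03 and -0.01. Windows with exon probes had a median difference of -1.17 over 24 windows, and those without -0.62 over 38.

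**Figure D3:**
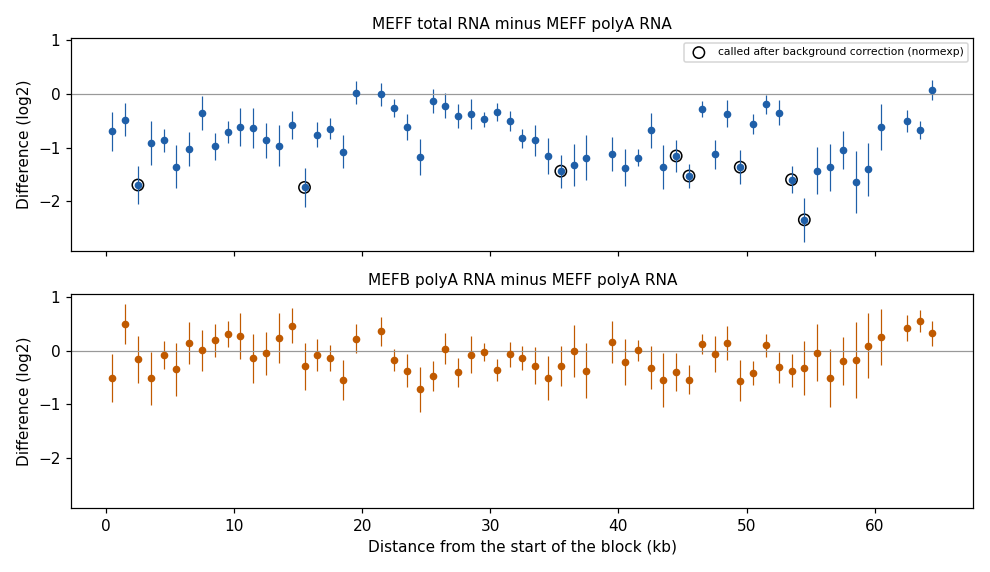
Difference of each 1 kb window along the stretch, with its standard error from limma, for MEFF total RNA minus MEFF polyA RNA (top) and MEFB minus MEFF in polyA RNA (bottom). Rings mark the 8 windows that passed after normexp. In the top panel 60 of 62 differences lie below 0, and in the bottom panel 41 of 62.

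The gap between exons and introns was narrower in total RNA with intensities as deposited. After loess it was not narrower for Safb, and for Lonp1 it was nearly the same in total RNA and polyA RNA. This fit over 473 genes with at least 5 probes of each kind was added after the data had been seen. The mean gap of the 4 genes came to 1.36 and 1.44 in MEFF total RNA and 2.51 in MEFB, against 2.50 and 3.03 in MEFF polyA RNA. All 4 genes passed limma's test, with an adjusted p of 0.0361 each. The difference was -1.67 (SE 0.21) for 2410015M20Rik and -1.55 (SE 0.35) for Safb. It was -1.31 (SE 0.25) for Lonp1 and -0.91 (SE 0.18) for Safb2. Of all 473 genes, 201 (42.5%) passed, all with a narrower gap, and the median difference was -0.76. The exact permutation test of the mean gap, 2 arrays against 2, gave p = 0.333 two-sided, the smallest it can give. In the cDNA channel alone the differences lay between -1.63 and -0.89, and the calls were lost (adjusted p = 0.0615 each). Without total RNA replicate 1 they lay between -1.73 and -0.87 (adjusted p between 0.0514 and 0.234), and without replicate 2 between -1.75 and -0.96 (adjusted p between 0.0515 and 0.18), so no call held there either. After loess the difference was -1.44 for 2410015M20Rik (adjusted p = 0.0612) and -0.33 for Safb2 (adjusted p = 0.569). It was -0.08 for Lonp1 (adjusted p = 0.954) and had the opposite sign for Safb, at 0.14 (adjusted p = 0.922), against a median of -0.23 over all genes. After quantile normalization it was -0.11 for Lonp1 (adjusted p = 0.509), while the other 3 genes passed.

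**Figure D4:**
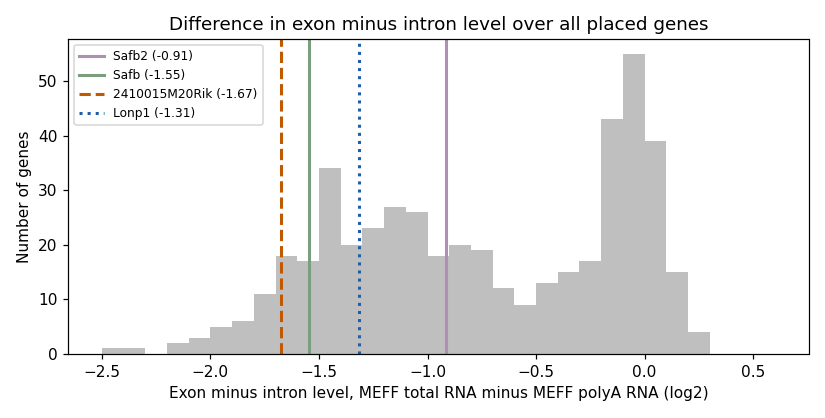
Number of genes by their difference in exon minus intron level between MEFF total RNA and MEFF polyA RNA, in log2 units, over 473 placed genes. The lines mark Safb2 at -0.91, Safb at -1.55, 2410015M20Rik at -1.67 and Lonp1 at -1.31, against a median of -0.76 over all genes.

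Taken alone, the exon levels did not pass with intensities as deposited. The differences were -2.30 (SE 0.63) for Safb, -1.99 (SE 0.48) for 2410015M20Rik, -1.99 (SE 0.56) for Lonp1 and -1.39 (SE 0.43) for Safb2, each with limma's adjusted p = 0.105. None of 524 genes passed (0%), and 240 (45.8%), these 4 among them, had an unadjusted p under 0.05. After normexp all 4 passed, as did 56.7% of genes with a lower level. After loess 2410015M20Rik (-1.85, adjusted p = 0.0202) and Safb2 (-0.64, adjusted p = 0.0377) passed, as did 26.9% of genes. Safb (-0.34, adjusted p = 0.615) and Lonp1 (-0.54, adjusted p = 0.233) did not pass after loess. After quantile normalization all 4 passed, as did 50.6% of genes, with smaller differences of -1.22 for 2410015M20Rik, -0.85 for Safb, -0.48 for Safb2 and -0.40 for Lonp1. The median over all 524 genes was -1.0 with intensities as deposited, -0.39 after loess and -0.32 after quantile normalization. Intron levels differed by -0.76 (SE 0.28) for Safb, -0.67 (SE 0.32) for Lonp1, -0.48 (SE 0.30) for Safb2 and -0.31 (SE 0.29) for 2410015M20Rik, with limma's adjusted p between 0.493 and 0.702. No gene of 585 passed by intron level (0%), and 8.21% had an unadjusted p under 0.05.

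Signal over background was lower on both total RNA arrays than on every polyA array, and it also differed between the MEFF polyA arrays. The 99th percentile of the cDNA intensity lay 5.42 and 5.33 times above the array median in MEFF total RNA and 20.7 times in MEFB, against 9.17 and 22.4 times in MEFF polyA RNA. The arrays of total RNA and polyA RNA were also from different series of slides, so the slides cannot be told apart from the kind of RNA. Centred on the array median, the input level of the stretch was 0.17 and 0.23 for MEFF total RNA, 0.24 for MEFB, and 0.14 and 0.07 for MEFF polyA RNA. The part of these signals in the differences was not tested.

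The second comparison set MEFB beside MEFF in polyA RNA, 2 lines whose deletion lies on opposite parental copies, at a place far from this stretch. The level of the stretch was 1.58 in MEFB, between the 1.27 and 2.12 of the MEFF arrays. The difference was -0.12 (SE 0.34, limma's adjusted p = 0.872 over 1100 tiles), where 1.73% of tiles passed. No window of 62 passed (lowest adjusted p = 0.342), where 0.00713% of all windows passed, and 1 of 62 had an unadjusted p under 0.05, against 14.2% of all. MEFB lay between the MEFF arrays in 45 of 62 windows. It lay above both in 7 (11.3%, against 34.3% of all windows) and below both in 10 (16.1%, against 32.9%). The difference from the mean of the MEFF arrays was below 0 in 41 of 62 windows, against 49.3% of all windows.

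The second MEFF polyA array exceeded the first in 61 of 62 windows, with a median gap of 0.87, against -0.01 over all windows. The sign of this comparison therefore depended on which MEFF polyA array was used. Without the second MEFF array the difference of the stretch was 0.31, and without the first it was -0.55. Only the 2 total RNA arrays then gave a residual spread, with an SD of 0.000646 for this stretch, so no call is drawn from either value. After normexp and after quantile normalization the difference was -0.50 (adjusted p = 0.040) and -0.28 (adjusted p = 0.046), where 6.18% and 8.36% of tiles passed with a lower level. The call after normexp was lost at the same difference without either total RNA array (adjusted p = 0.273), at -0.16 without the second MEFF polyA array (adjusted p = 0.227), and at -0.37 with quantile normalization added (adjusted p = 0.0714). The cDNA channel alone gave 0.0614.

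No gene of the stretch passed in this comparison with intensities as deposited. Exon levels differed by -0.77 (SE 0.77) for Safb, -0.20 (SE 0.53) for Safb2, -0.19 (SE 0.68) for Lonp1 and -0.16 (SE 0.59) for 2410015M20Rik, with limma's adjusted p between 0.932 and 0.976. None of 524 genes passed (0%), and 8.4% had an unadjusted p under 0.05. After normexp Safb exons passed at -1.35 (adjusted p = 0.0475) and Lonp1 exons did not, at -1.22 (adjusted p = 0.0885), where 7.25% of genes passed with a lower level. After quantile normalization Safb passed at -0.97 (adjusted p = 0.00562) and Lonp1 at -0.53 (adjusted p = 0.0206), where 16.8% passed with a lower level. The largest window differences were 0.55, 0.49 and 0.46 for the windows from 54953000 (Lonp1), 54891000 and 54904000 (Safb2). In the other direction they were -0.72, -0.56 and -0.56 for the windows from 54914000 (the head-to-head start of Safb and Safb2), 54939000 (2410015M20Rik) and 54933000 (Safb). The head-to-head window stood at 1.35 in MEFB, against 1.60 and 2.54 in MEFF polyA RNA. In the single window from 54953000, MEFB was above both MEFF arrays at 0.45, against 0.11 and -0.31.

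Tile edges were set so that the stretch filled a whole tile, while other transcribed places could be cut by an edge. The choice of the stretch and of the edges favours its rank, which is given as a description only. By its mean over the 5 arrays the stretch ranked 2 of 1100 tiles. It ranked 8 and 6 on the MEFF total RNA arrays, 4 on the MEFB array, and 3 and 2 on the MEFF polyA arrays. The 3 other longest transcribed runs of the chromosome are set beside it, as a description. The MEFF total RNA minus MEFF polyA RNA difference was -0.86 for the stretch, -1.07 for the 75 kb run whose first probe is at 34330067, -0.42 for the 60 kb run from 32120172 and -0.44 for the 60 kb run from 45085294. The MEFB minus MEFF polyA difference was -0.12, -0.29, 0.19 and 0.31 in the same order. Windows above the 95th percentile on all 5 arrays made up 43.5% of the stretch and 52.8%, 29.4% and 30.2% of these runs.

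All 409 probes, as placed, were compared with the rest of the NCBIM37 genome. A match of at least 40 of 50 bases elsewhere was found for 10 of them, and of at least 30 for 39. Among exon probes inside the stretch, 1 of 12 in Safb reached 40, and 0 of 28 in Safb2, 0 of 5 in 2410015M20Rik and 0 of 10 in Lonp1. In the cDNA channel 1 probe of the stretch was at the scanner limit, on the first total RNA array.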

How the data were processed

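Transcription of mouse chromosome 17 was measured on 5 2-colour tiling arrays of 388000 probes of 50 bases. The deposited values are intensities per probe and channel, written by NimbleScan 2.2.34 per the file headers, with no background subtraction or normalization seen in the values. From these, log2(cDNA/input) was computed, centred on each array's median and averaged over 1 kb windows (at least 4 probes, 56080 windows), 65 kb tiles (at least 200 probes, 1100 tiles) and the exons and introns of genes (at least 5 probes). Groups were taken from the labels and compared with limma 3.58.1 in R 4.3.3 (lmFit and eBayes, 3 group means, 2 residual degrees of freedom). The fit assumes that MEFB, with 1 array, varies as the MEFF groups do. P-values were adjusted by Benjamini-Hochberg over all features of a kind, and the threshold was 0.05. The functions were tested on simulated data.

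Separate cultures are not stated for the replicates, so p-values reflect no more than how far these arrays differ, and that may be technical. Precision is limited by the number of arrays.

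Probes were placed on NCBIM37 in blocks of 25 kb by the repetitiveness of 14-base words, which placed 276968 of 387986 probes, and then moved together by -27 bases to where input signal followed GC content most closely. Exons came from the GENCODE annotation of that assembly. Matches elsewhere were found with blastn. The members, gene lists and tests were chosen with earlier results of these data known. The text names each protein-coding gene of the placed stretch, its 5 highest and 5 lowest windows, the 3 largest differences in each direction per comparison, and called windows (the 5 with the lowest adjusted p where there were more). Since nothing passed with intensities as deposited, called windows were named after normexp.

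Alternatives were normexp background correction (offset 50), loess (span 0.3), quantile normalization, the cDNA channel alone, the median of probes, removal of the dimmest 10% of input, 2 and 5 kb windows, a trended prior, the compared groups alone and each array left out. Chosen after seeing the data were normexp with quantile normalization or with an array left out, the placing by probe positions, its offset, and all gene-level fits. Tests of gene sets and proteins were not used here. Shares of all windows and tiles that passed were counted only where given. A pass of the stretch or its windows without such a share, as after loess, does not set the stretch apart from other places.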

Additional observations from a re-analysis of the deposited data

How the results depend on the processing

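The MEFF total RNA minus MEFF polyA RNA difference of the stretch was below 0 under every alternative run. It was -0.86 with intensities as deposited and passed the threshold at -0.85 after normexp, -0.48 after loess, -0.31 after quantile normalization and -0.58 after normexp with quantile normalization. Of all tiles, 0% passed as deposited, 7.64% lower after normexp and 4.27% lower after quantile normalization (other settings not counted). Leaving out 1 array gave values between -1.29 and -0.43. A compared group then held 1 array, and shares of all windows were not counted. A pass there is no call, and a lost call only a limit. With normexp as well, the values were -0.91 and -0.80 without total RNA replicate 1 or 2, and -1.19 and -0.52 without MEFF polyA replicate 1 or 2. The call after normexp was not kept without total RNA replicate 2. The number of its windows that passed was 0 as deposited, 8 after normexp, 15 after quantile normalization and 2 after both. It lay between 0 and 59 with 1 array left out (59 without MEFF polyA replicate 1 and 36 without replicate 2), and with normexp as well it was 15 without MEFF polyA replicate 1, 0 without MEFF polyA replicate 2, and 4 and 3 without total RNA replicate 1 or 2. The MEFB minus MEFF polyA difference was -0.12 and reversed to 0.0614 in the cDNA channel alone. It passed at -0.50 after normexp and -0.28 after quantile normalization, but not at -0.37 after both (adjusted p = 0.0714). It lay between -0.55 and 0.31 with 1 array left out, and between -0.83 and -0.16 with normexp as well. The call after normexp was not kept without either total RNA array or without MEFF polyA replicate 2. The number of windows that passed in this comparison was 0 as deposited and 2 after quantile normalization. It lay between 0 and 44 with 1 array left out (44 without MEFF polyA replicate 1 and 24, all higher, without replicate 2), and between 0 and 1 with normexp as well. The causes were not tested. Where a polyA array was left out, 1 residual degree of freedom remained, from the total RNA pair.

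The 4 genes called for the exon minus intron gap were 4 under normexp, the trended prior and the compared groups alone, and 3 after quantile normalization, where Lonp1 was lost at -0.11. They were 0 in the cDNA channel alone, where the differences lay between -1.63 and -0.89, and 1 after normexp with quantile normalization. They were also 0 after loess, which left -1.44 for 2410015M20Rik, -0.33 for Safb2 and -0.08 for Lonp1 and reversed Safb to 0.14. They were 2 without probes near exon edges, where Safb and Safb2 alone kept enough probes. With total RNA replicate 1 or 2 left out, no call held. Of all 473 genes, 56.2% passed after normexp, 51.6% with the trended prior, 42.5% with the compared groups alone and 43.3% after quantile normalization. The share was 0% in the cDNA channel alone, 0.211% after loess and 38.5% after normexp with quantile normalization. Without probes near exon edges it was 36.3% of 350 genes. With 1 array left out, the median difference over all genes lay between -1.04 and -0.52. The mean gap over 5 arrays was 2.17, with 2.78 after normexp and 1.40 without probes near exon edges. That last value rests on Safb and Safb2, whose gap with all probes was 1.77.

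The median difference of all 524 genes' exon levels was -1.0, -0.39 after loess and -0.32 after quantile normalization. The placing by 1 shift of the input signal gave -730258 bases over all arrays. Single arrays gave 312872 and 312889 for MEFF total RNA and 1809774 for MEFB. The first 215 probes gave 312889 and the last 194 gave 1809766. Probe positions gave 1809790, and input signal along their pieces 1809766.

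No paired analysis was possible because the replicate numbers were given in accession order and the labels pair no arrays.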
